A study of Homo sapiens with 4 samples.

Results

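Translation initiation factors are the proteins that bring the small ribosomal subunit, the initiator tRNA and an mRNA together at a start codon. Their genes were chosen by name: every gene whose symbol starts with EIF and a digit from 1 to 6, without the EIF2AK genes, which encode kinases that act on eIF2. This gave 52 of the 23444 genes in the table. By factor they are 5 genes of eIF1, 6 of eIF2, 5 of eIF2B, 14 of eIF3, 13 of eIF4, 5 of eIF5 and 1 of eIF6, and 3 genes encode the EIF4EBP repressors. The RNA was taken from a human glioblastoma line, U87-MG, which is an established cell line, and sequenced in 4 libraries. In 2 libraries, called shCON, the cells carried a negative control hairpin, and in the other 2, called shMAGED2, a short hairpin RNA directed at MAGED2, a gene of the melanoma antigen family. The series design describes the knockdown as stable, while the treatment protocol in the labels names hairpins against ZDHHC15 in transiently transfected cells harvested after 36 h, and which of the descriptions applies was not resolved. The sources used here state no further allele or agent, and nothing says that the replicates were separate cultures, so each p-value reflects the spread among these 4 libraries alone, which may be technical.

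Initiation begins when eIF2, carrying GTP and the initiator tRNA, joins the small subunit together with eIF1, eIF1A, eIF3 and eIF5. The cap-binding complex eIF4F, made of the cap-binding protein eIF4E, the scaffold eIF4G and the RNA helicase eIF4A, loads the mRNA, and the EIF4EBP proteins block eIF4E unless the kinase mTOR has phosphorylated them. After the start codon is found, eIF5 triggers GTP hydrolysis by eIF2, eIF5B joins the large subunit, and eIF2B recharges eIF2 with GTP. In glioblastoma, as in other tumours, eIF4F and the signalling from mTOR to the EIF4EBP proteins are among the most studied steps of translation control.

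MAGED2 was low in both knockdown libraries, at 17.9 and 21.7 CPM (counts relative to the TMM-scaled library total) against 174.5 and 178.2 CPM in shCON. Pairs of values are given throughout as replicate 1 and then replicate 2. Its log2 change was -3.16 (SE 0.13), with an adjusted p of 0.000654 from the quasi-likelihood test of edgeR after Benjamini-Hochberg adjustment, and 11.2% of the control level was left. Total counts per library lay between 28673774 and 36234336, so that a count of 0 allows at most 0.0828 to 0.1046 CPM (3 counts, counting error only). All 7 markers of mesenchymal glioblastoma lines were tested, with VIM at 7577 to 8802 CPM, and 2 of them, NES and ANXA2, rose. NES was low, at 4.73 and 5.66 CPM in shCON and 19.3 and 18.8 CPM in shMAGED2. VIM, CD44 and TNC (log2 changes 0.08, 0.35 and 0.35) did not pass, nor did LGALS1 (-0.18) and S100A6 (-0.63). S100A6 was at 866.6 and 829.5 CPM in shCON and at 205.4 and 890.8 CPM in shMAGED2. Of 7 astrocyte and oligodendrocyte markers, AQP4 and SOX10 had 0 counts in all 4 libraries, GFAP was at 0.951 to 3.03 CPM, SLC1A3 at 24.8 to 29.7 CPM, and OLIG2 fell from 5.16 and 5.76 to 1.77 and 2.21 CPM (adjusted p = 0.0158). Of 6 epithelial markers, CDH1, KRT5, KRT14 and KRT20 had 0 counts, and CLDN4 (1.47 to 3.48 CPM) and EPCAM (0.327 to 0.682 CPM) were detected. Among blood and endothelial markers, HBB had 0 counts in all 4 libraries and CD68 was at 380 to 602 CPM. The part of these markers in the other results was not tested. The replicates of shMAGED2 differed more from each other than those of shCON, with a median absolute log2 ratio over all tested genes of 0.25 against 0.111. In RNA from whole cultures, a change in the cells that make up the culture and a change in RNA per cell cannot be told apart.

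Of the 52 genes, 50 had enough counts to be tested and EIF1AY and EIF4E1B had 0 counts in all 4 libraries. Of the tested 50, 9 rose and 7 fell in shMAGED2 at an adjusted p under 0.05 in the edgeR quasi-likelihood test, and 34 did not pass. Over all 15293 genes tested, 12.3% rose and 11.6% fell (23.9% in all), against 18% and 14% (32.0%) of the initiation factor genes. The 15293 include genes with low counts, so these are not shares of like genes. Among genes with at least 5 CPM in 2 libraries, 1740 rose and 1787 fell of 11399. By that filter 8 rose and 8 fell of 49 initiation factor genes. Whether initiation factor genes passed more often than other genes was not tested. The rises include EIF5AL1 and EIF3CL, near-identical copies of EIF5A and EIF3C. With EIF5A and EIF5AL1, EIF3C and EIF3CL, and EIF2S3 and EIF2S3B each summed, 7 of 47 genes rose and 7 fell. The 2 libraries of one group did not overlap those of the other in 35 initiation factor genes, 22 higher and 13 lower in shMAGED2, or 70.0% against 66% of all genes. The median log2 change was 0.12 (0.00 over all genes) and the median absolute log2 change 0.31 (0.37 over all genes). EIF5A, EIF5AL1, EIF5A2, EIF4G1 and EIF3CL rose at least 1.5-fold, EIF4B, EIF1 and EIF1B fell at least 1.5-fold, and EIF5AL1 alone passed 2-fold. Of all genes tested, 17.6% passed the test with a change of at least 1.5-fold and 9.05% with at least 2-fold. Changes of the initiation factor genes ran in both directions and most stayed under 1.5-fold.

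**Figure D1:**
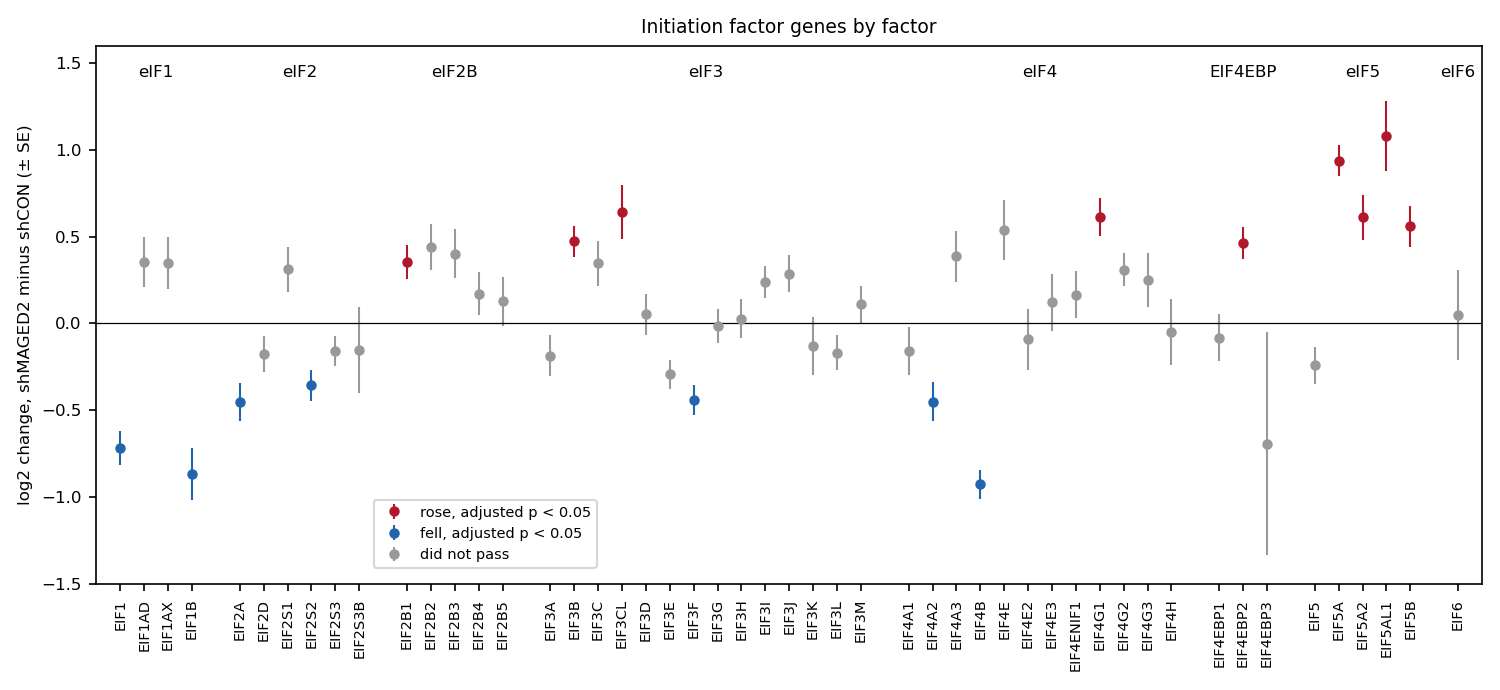
Log2 change (shMAGED2 minus shCON, y axis) of the 50 tested initiation factor genes, grouped by factor along the x axis. Points are edgeR estimates and bars ± 1 SE. Red marks the 9 that rose, blue the 7 that fell and grey the 34 that did not pass. The eIF5 group, formed by symbol from different factors, holds 4 of the 9 rises. These include EIF5AL1, a near-identical copy of EIF5A whose counts are uncertain. Over all genes tested, 12.3% rose.

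The 2 largest rises were those of EIF5AL1 and EIF5A, and EIF5A2 rose with them. The protein eIF5A helps ribosomes through sequences that form peptide bonds slowly, such as runs of proline, and in termination, and it is the protein known to carry hypusine, an amino acid made from a lysine by DHPS and DOHH. EIF5A (ENSG00000132507, plus strand of chromosome 17, 7306999 to 7312463 in hg38) stood at 350.5 and 346.1 CPM in shCON and at 640.8 and 691.8 CPM in shMAGED2. The lower knockdown library was far above the higher control, and the gene rose by 0.94 on the log2 scale (SE 0.09, adjusted p = 0.002), to 191% of control. EIF5A2 (ENSG00000163577, minus strand of chromosome 3, 170888415 to 170908693), a second gene for the protein that is little expressed in most adult tissues, was at 17.6 and 18.3 CPM against 27.8 and 27.0 CPM. It rose by 0.61 (SE 0.13, adjusted p = 0.0222), and its groups did not overlap. EIF5AL1 (ENSG00000253626, plus strand of chromosome 10, 79512601 to 79516440), a copy close to EIF5A, had 7.25 and 6.44 CPM against 16.2 and 12.8 CPM and rose by 1.08 (SE 0.20, adjusted p = 0.0155).

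How alike the 3 genes are bears on whether their reads can be told apart. The stretch around codon 50, the lysine codon that becomes hypusine, is shown for each from the GENCODE 29 coding sequence (bases 133 to 165), with that codon in capitals.
EIF5A: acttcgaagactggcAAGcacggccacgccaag
EIF5A2: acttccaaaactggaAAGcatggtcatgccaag
EIF5AL1: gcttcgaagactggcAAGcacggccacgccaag
The codon is AAG in each. Counted from the first base shown, EIF5AL1 differs from EIF5A by 1 base (A1G) and EIF5A2 by 6 (G6C, G9A, C15A, C21T, C24T and C27T). Over the aligned coding sequence EIF5AL1 and EIF5A were identical at 460 of 465 bases (98.92%), EIF5A2 and EIF5A at 72.94%. Counts of EIF5AL1 are therefore uncertain, since reads of EIF5A can match it, while EIF5A2 is well separated in these letters. With both near-identical genes summed, 357.8 and 352.5 CPM stood against 657.0 and 704.6 CPM, a log2 change of 0.94 (SE 0.09, adjusted p = 0.00191). Per gene length, EIF5A held 98.0% of the FPKM (fragments scaled by gene length and library total) of the 3 genes in shCON and 98.1% in shMAGED2, and the sum of FPKM was 241 ± 9.19 against 436 ± 41.3 (SD, n = 2). GPS2, which overlaps EIF5A on the opposite strand, was at 46.6 and 45.04 CPM against 83.9 and 53.9 CPM (adjusted p = 0.0966). Of the enzymes that make hypusine, DHPS was at 27.7 and 29.9 CPM in shCON and 21.1 and 21.9 CPM in shMAGED2 (log2 change -0.42, adjusted p = 0.0608), and DOHH at 15.4 and 16.9 against 15.04 and 23.8 CPM (adjusted p = 0.454).

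EIF5B, the GTPase that joins the ribosomal subunits (ENSG00000158417, plus strand of chromosome 2, 99337353 to 99401326), also rose. It had 129.7 and 137.4 CPM in shCON and 215.0 and 178.4 CPM in shMAGED2 (log2 change 0.56, SE 0.12, adjusted p = 0.0229). Both knockdown libraries lay above both controls, with replicate 1 the higher. EIF5, which makes eIF2 hydrolyse its GTP, was at 392.8 and 405.3 against 309.9 and 365.2 CPM, lower in both knockdown libraries without passing the test (log2 change -0.24, SE 0.11, adjusted p = 0.162).

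**Figure D2:**
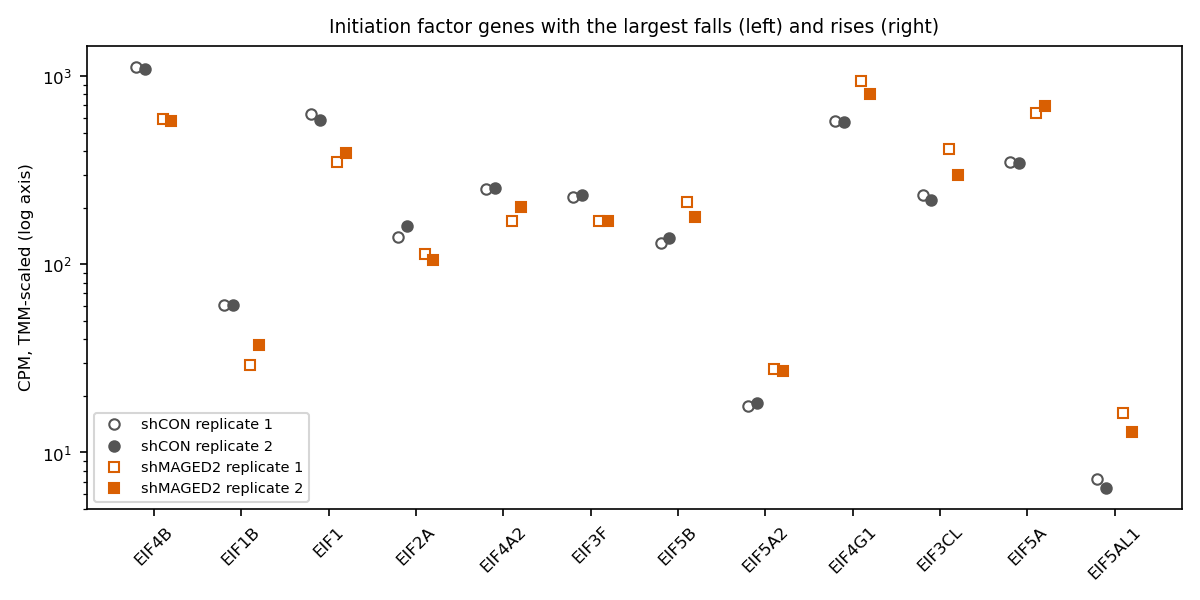
CPM on a log axis in each of the 4 libraries for the 6 initiation factor genes with the largest falls and the 6 with the largest rises among those that passed the test at a mean of at least 5 CPM. Circles are shCON and squares shMAGED2, open for replicate 1 and filled for replicate 2. The groups overlap in none of the 12 genes, which were chosen by the test on these same libraries. Of all tested genes, 66% had groups that did not overlap.

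Among the eIF4 genes the largest change was the fall of EIF4B, whose protein stimulates the helicase eIF4A and is a target of the S6 kinases. EIF4B (ENSG00000063046, plus strand of chromosome 12, 53006158 to 53042209) was at 1125 and 1093 CPM in shCON and at 589.7 and 577.4 CPM in shMAGED2. The libraries of each group lay close together, and the gene fell by 0.93 (SE 0.09, adjusted p = 0.00179), to 52.6% of control. Per gene length it was the second of the 52 genes in shCON (269 ± 5.69 FPKM, SD, n = 2) and the 9th in shMAGED2 (138 ± 3.49 FPKM). EIF4H, a shorter protein with the same kind of action on eIF4A, was at 518.1 and 526.8 against 403.3 and 606.6 CPM, so that 1 knockdown library was below and the other above the controls (log2 change -0.05, SE 0.19, adjusted p = 0.878).

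The eIF4A helicases behaved unequally. EIF4A2 (ENSG00000156976, plus strand of chromosome 3, 186783205 to 186789900) fell, from 252.1 and 253.4 to 169.3 and 200.7 CPM (log2 change -0.45, SE 0.11, adjusted p = 0.0347). EIF4A3, a member of the exon junction complex rather than of eIF4F, was at 62.8 and 54.6 against 68.2 and 85.3 CPM (log2 change 0.39, adjusted p = 0.109). EIF4A1, the main helicase of eIF4F (ENSG00000161960, plus strand of chromosome 17, 7572706 to 7579005), had 895.8, 885.5 and 902.7 CPM in the first 3 libraries and 693.9 CPM in shMAGED2 replicate 2 (log2 change -0.16, SE 0.14, adjusted p = 0.45). Only that last library was low.

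A read-through gene, SENP3-EIF4A1, overlaps EIF4A1 on the same strand, and it was given 270 and 482 counts in the shCON libraries against 519 and 12434 in the shMAGED2 ones. The library with the low EIF4A1 value was thus the one with the high read-through value. Summed, the 2 genes had 903.6 and 901.9 CPM in shCON and 920.3 and 1032 CPM in shMAGED2, a log2 change of 0.11 (SE 0.10, adjusted p = 0.44). The direction for EIF4A1 turned with the sum, and neither value passed the test. The rule by which reads common to both genes were divided is not stated. SENP3 itself was at 70.2 and 64.1 against 82.2 and 49.0 CPM, also lowest in shMAGED2 replicate 2.

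**Figure D3:**
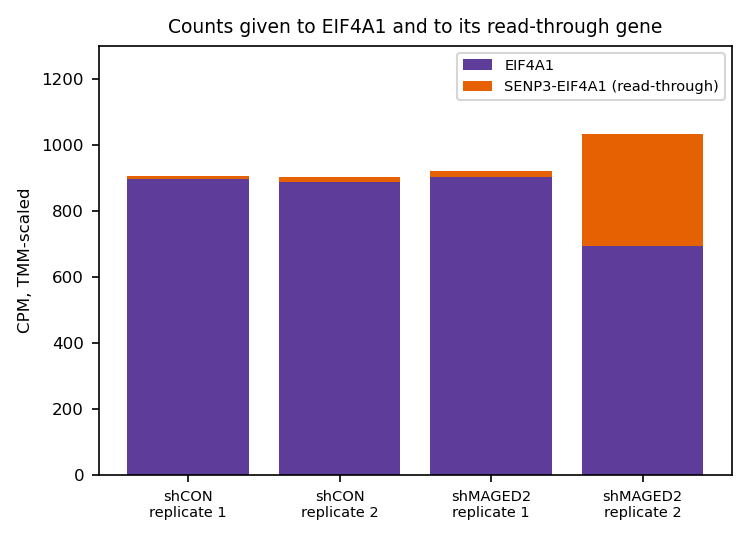
CPM counted for EIF4A1 (purple) and for the read-through gene SENP3-EIF4A1 (orange, stacked on top) in each library, from 0. EIF4A1 alone is lowest in shMAGED2 replicate 2, at 693.9 CPM, and the stacked sum is highest there, at 1032 CPM.

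The scaffold EIF4G1 (ENSG00000114867, plus strand of chromosome 3, 184314495 to 184335358) rose from 575.1 and 567.4 to 948.6 and 800.0 CPM (log2 change 0.61, SE 0.11, adjusted p = 0.0136). EIF4G2, a relative that lacks the eIF4E-binding site and works without the cap-binding protein, was at 831.6 and 858.9 against 1101 and 995.4 CPM, higher in both knockdown libraries but short of the threshold (log2 change 0.31, SE 0.09, adjusted p = 0.063). EIF4G3 was at 230.2 and 221.7 against 309.7 and 227.8 CPM (adjusted p = 0.289). As a share of the FPKM of the 3 scaffold genes, EIF4G1 was 27.3% ± 0.24 in shCON and 31.3% ± 0.06 in shMAGED2 (SD, n = 2) and EIF4G2 62.6% ± 0.81 against 59.6% ± 0.60. EIF4G2 remained the most abundant scaffold transcript per gene length in both groups.

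The cap-binding protein gene EIF4E was at 60.8 and 65.8 CPM in shCON and 76.4 and 107.2 CPM in shMAGED2. Both knockdown libraries were above the controls, yet the log2 change of 0.54 (SE 0.17) did not pass (adjusted p = 0.0718). It passed in 5 of 17 alternatives: DESeq2, no count filter, the replicate block and either shMAGED2 library left out. With a shMAGED2 library left out, the spread comes from the shCON pair alone. The deposited FPKM of EIF4E were 6.11 and 11.4 in the controls and 12.9 and 21.0 after knockdown, so the controls differed per gene length where their counts did not. EIF4E2, a cap-binding relative used in repression, was at 82.5 and 83.7 against 64.0 and 91.8 CPM, with 1 knockdown library on each side of the controls (adjusted p = 0.742). EIF4E3 was at 16.2 and 16.5 against 19.6 and 16.0 CPM (adjusted p = 0.632). EIF4ENIF1, the transporter that carries eIF4E into the nucleus, was between 26.2 and 33.0 CPM in all libraries (adjusted p = 0.423).

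The EIF4EBP repressors did not move together. EIF4EBP2 (ENSG00000148730, plus strand of chromosome 10, 70404379 to 70428618) rose from 96.7 and 97.5 to 138.4 and 129.3 CPM (log2 change 0.46, SE 0.09, adjusted p = 0.0193). EIF4EBP1, the repressor most used as a readout of mTOR, was at 50.7 and 44.2 against 48.5 and 41.3 CPM, with overlapping groups (log2 change -0.08, SE 0.14, adjusted p = 0.706). EIF4EBP3 had only 48 and 22 counts in shCON and 12 and 33 in shMAGED2 (adjusted p = 0.476), and it shares its strand with the read-through gene ANKHD1-EIF4EBP3, so its level is uncertain. In FPKM the 3 repressors summed to 60.3 ± 5.01 in shCON and 59.7 ± 2.18 in shMAGED2 (SD, n = 2). Within that sum EIF4EBP1 went from 75.7% ± 1.10 to 69.3% ± 2.01 and EIF4EBP2 from 21.9% ± 1.93 to 29.2% ± 1.08. These shares were not tested.

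The factors that keep the scanning ribosome open for start-codon choice, EIF1 and EIF1B, both fell. EIF1 (ENSG00000173812, plus strand of chromosome 17, 41688885 to 41692668) went from 631.4 and 588.6 CPM to 351.1 and 391.3 CPM (log2 change -0.72, SE 0.10, adjusted p = 0.00619). EIF1B (ENSG00000114784, plus strand of chromosome 3, 40309684 to 40312424), a close relative with 82.16% identity to EIF1 in the aligned coding sequence, went from 60.6 and 60.5 to 29.1 and 37.3 CPM (log2 change -0.87, SE 0.15, adjusted p = 0.0116). In FPKM the 2 genes summed to 317 ± 12.2 in shCON and 183 ± 25.7 in shMAGED2 (SD, n = 2), with EIF1 at 81.4% and 83.1% of the sum. EIF1AX, the X-linked gene of eIF1A, was instead at 121.7 and 123.4 against 133.9 and 178.0 CPM, above the controls in both libraries without passing (log2 change 0.35, SE 0.15, adjusted p = 0.142). EIF1AD, named for its eIF1A-like domain, was at 45.6 and 50.3 against 68.5 and 54.1 CPM (adjusted p = 0.135).

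Of the 3 subunits of eIF2, only the beta subunit gene passed the test. EIF2S2 (ENSG00000125977, minus strand of chromosome 20, 34088298 to 34112332) fell from 291.0 and 305.3 to 235.9 and 229.8 CPM (log2 change -0.36, SE 0.09, adjusted p = 0.0341). That call was lost in 6 of 17 alternatives, among them the 3 FPKM fits, the replicate block and either shCON library left out. The alpha subunit gene EIF2S1, whose protein is phosphorylated in the integrated stress response, was higher in both knockdown libraries, at 148.0 and 142.7 against 160.4 and 200.0 CPM (log2 change 0.31, SE 0.13, adjusted p = 0.132). The gamma subunit gene EIF2S3, which binds GTP and tRNA, was at 323.3 and 315.4 against 278.0 and 294.0 CPM (log2 change -0.16, adjusted p = 0.24), and summed with its 98.24% identical copy EIF2S3B the change was also -0.16 (adjusted p = 0.245). EIF2S1 took 12.7% ± 0.39 of the FPKM of the 3 subunit genes in shCON and 17.7% ± 2.07 in shMAGED2 (SD, n = 2). Whether the subunits differed from each other in their change was not tested.

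EIF2A, an initiation factor distinct from the eIF2 complex that can deliver the initiator tRNA without it (ENSG00000144895, plus strand of chromosome 3, 150546678 to 150584242), fell from 139.6 and 159.1 to 112.9 and 105.5 CPM (log2 change -0.45, SE 0.11, adjusted p = 0.0314). SERP1, a stress-associated protein of the endoplasmic reticulum, overlaps EIF2A on the opposite strand and went from 257.9 and 250.4 to 123.6 and 121.2 CPM (log2 change -1.05, SE 0.09, adjusted p = 0.0014). Whether counting used strand is not given, so reads of the 2 genes cannot be told apart where they overlap. The same limit holds for other called genes that overlap coding genes on the opposite strand. They are EIF2B1 (DDX55 and GTF2H3), EIF2S2 (RALY), EIF3B (SNX8), EIF4A2 (RFC4) and EIF5B (REV1 and TXNDC9). Counts of those neighbours were not examined. EIF2D, which acts in ribosome recycling and reinitiation, was at 74.4 and 67.5 against 64.1 and 61.7 CPM (adjusted p = 0.281).

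The 5 subunit genes of eIF2B, the exchange factor that the integrated stress response inhibits, all had positive log2 changes, from 0.13 for EIF2B5 to 0.44 for EIF2B2, and 1 passed. EIF2B1 (ENSG00000111361, minus strand of chromosome 12, 123620406 to 123633766), which encodes the alpha subunit, was at 55.3 and 58.2 CPM in shCON and 72.7 and 72.2 CPM in shMAGED2 (log2 change 0.35, SE 0.10, adjusted p = 0.04997). This p lies at the threshold, and the call was lost in 12 of 17 alternative analyses. EIF2B2 was at 40.7 and 35.6 against 55.6 and 48.0 CPM (adjusted p = 0.0626) and EIF2B3 at 18.5 and 17.2 against 22.2 and 24.9 CPM (adjusted p = 0.0916). EIF2B4 had 30.6 and 28.6 against 34.8 and 32.0 CPM (adjusted p = 0.359). EIF2B5, the catalytic subunit, had 56.2 and 51.3 against 52.4 and 65.0 CPM, with overlapping groups (adjusted p = 0.552), and its log2 change turned to -0.041 without shMAGED2 replicate 2. The 5 genes summed to 82.3 ± 3.84 FPKM in shCON and 93.8 ± 6.37 in shMAGED2 (SD, n = 2).

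The eIF3 complex, the largest initiation factor, bridges the small subunit and eIF4F, and of its 14 genes 2 rose, 1 fell and 11 did not pass. The 21.4% called was no larger than the 23.9% of all genes. EIF3B, a core subunit with RNA-recognition and propeller domains (ENSG00000106263, plus strand of chromosome 7, 2354086 to 2380745), rose from 188.9 and 193.6 to 261.2 and 269.3 CPM (log2 change 0.47, SE 0.09, adjusted p = 0.0147). EIF3F, a subunit that carries an MPN domain (ENSG00000175390, plus strand of chromosome 11, 7970251 to 8001862), fell from 227.0 and 233.6 to 170.0 and 169.0 CPM (log2 change -0.44, SE 0.09, adjusted p = 0.0177). For both genes the libraries of a group lay close together and the groups were well apart.

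EIF3CL (ENSG00000205609, minus strand of chromosome 16, 28379579 to 28403879) rose from 233.3 and 220.4 to 408.8 and 299.9 CPM (log2 change 0.64, SE 0.16, adjusted p = 0.0333). It is a copy of EIF3C, which was at 305.6 and 314.9 against 441.0 and 347.6 CPM (log2 change 0.35, SE 0.13, adjusted p = 0.108). Their coding sequences were identical at all 2742 aligned bases, so reads within these bases cannot be assigned to either. The untranslated parts were not compared. Summed, they had 538.9 and 535.2 CPM in shCON and 849.8 and 647.5 CPM in shMAGED2, and the change of 0.48 (SE 0.14) did not pass (adjusted p = 0.0563). For the subunit c genes together, both knockdown libraries lay above the controls and the call depended on how the reads were split.

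The other 10 eIF3 genes had log2 changes between -0.29 and 0.29. EIF3E was nearest to the threshold, at 357.6 and 366.5 against 294.7 and 296.7 CPM (log2 change -0.29, SE 0.08, adjusted p = 0.0542). EIF3J, the loosely bound subunit, was at 68.8 and 73.7 against 91.7 and 82.2 CPM (log2 change 0.29, adjusted p = 0.108), and EIF3I at 216.5 and 201.4 against 240.9 and 251.5 CPM (log2 change 0.24, adjusted p = 0.116). EIF3A, the largest subunit and the scaffold, was at 676.4 and 694.8 against 665.2 and 541.0 CPM (log2 change -0.18, adjusted p = 0.312). EIF3L and EIF3K, which sit together in the complex, had log2 changes of -0.17 and -0.13, and EIF3D, EIF3G, EIF3H and EIF3M lay between -0.02 and 0.11.

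EIF6 keeps the large ribosomal subunit from joining too early. It was at 117.3 and 118.0 CPM in shCON and at 86.7 and 156.7 CPM in shMAGED2, so that the knockdown libraries stood on either side of a narrow control pair (log2 change 0.05, SE 0.26, adjusted p = 0.911). A second annotated gene, AL121753.1, shares part of its strand at 1.70 to 3.78 CPM.

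EIF6 had the widest gap between the shMAGED2 libraries apart from EIF4EBP3. Over the 50 tested genes the median absolute log2 ratio of replicate 2 to replicate 1 was 0.241 in shMAGED2 and 0.046 in shCON, and it passed 0.3 for 18 genes in shMAGED2 and for 1, EIF4EBP3, in shCON. EIF6 (0.85), EIF4H (0.59), EIF2S3B (0.58), EIF4E2 (0.52), EIF3K (0.49), EIF4E (0.49) and EIF1AX (0.41) were higher in shMAGED2 replicate 2, and EIF3CL (-0.45), EIF4G3 (-0.44), EIF4A1 (-0.38) and EIF3C (-0.34) were higher in replicate 1. The 10 tested genes with the shortest annotated transcripts had a median shMAGED2 ratio of 0.139 and the 10 with the longest -0.196. Over the 50 genes the Pearson correlation of the ratio with log2 transcript length was -0.35 in shMAGED2 and 0.39 in shCON. The 50 include EIF4EBP3, the shortest at 691 bases, with 12 to 48 counts and ratios of 1.14 in shMAGED2 and -0.87 in shCON. A gene with such values weighs heavily on both correlations, which were not computed without it. Over 13021 annotated genes the correlation was -0.13 and 0.02. With shMAGED2 replicate 2 as the only knockdown library, EIF4H had a log2 change of 0.22 and EIF6 of 0.41. With replicate 1 as the only one, EIF4H had -0.38 and EIF6 -0.44. With each library's trend with length and GC content removed, 9 genes rose and 8 fell. EIF4B (-0.03), EIF3B (0.04), EIF3F (-0.01) and EIF5A (0.11) were among the genes whose shMAGED2 libraries lay close together.

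**Figure D4:**
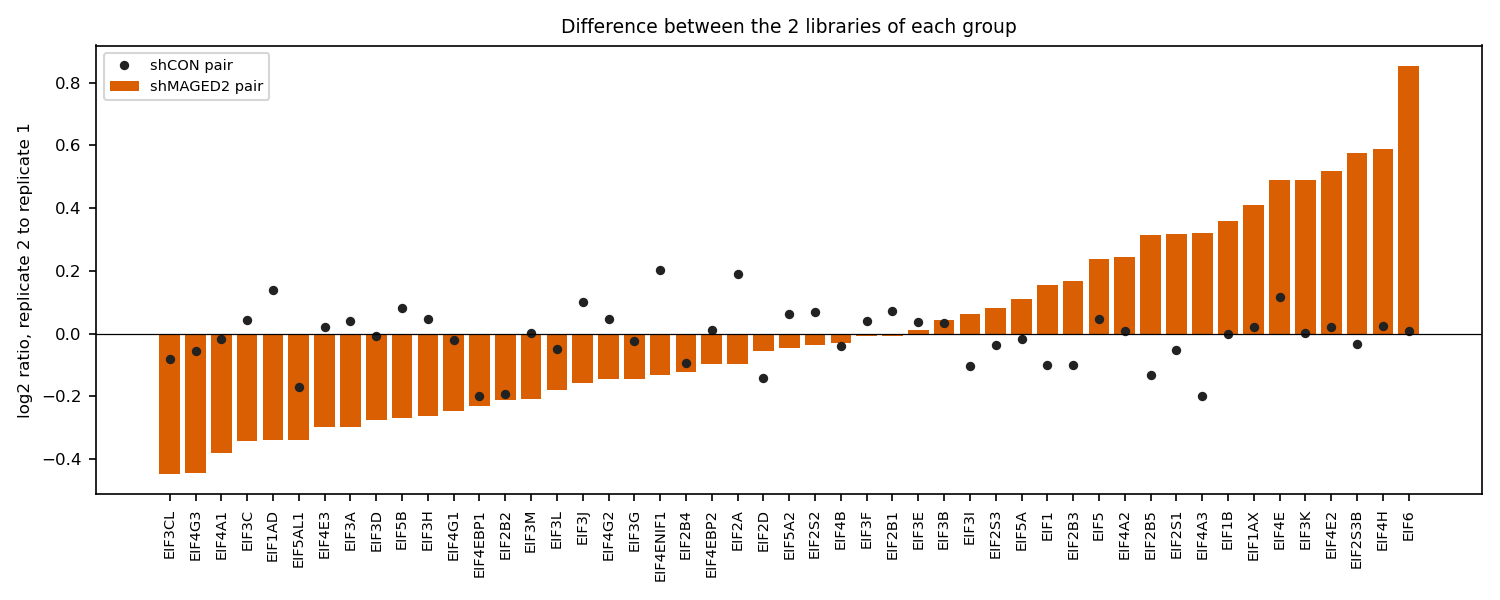
Log2 ratio of replicate 2 to replicate 1 for 49 of the 50 tested genes, in order of the shMAGED2 ratio (bars) with the shCON ratio as points. EIF4EBP3, with at most 48 counts, is left out for scale (1.14 in shMAGED2 and -0.87 in shCON). The bars run from -0.45 for EIF3CL to 0.85 for EIF6 and the points from -0.20 for EIF4A3 to 0.20 for EIF4ENIF1.

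Per gene length, EIF4A1 had the highest level of the 52 genes in both groups (572 ± 57.1 FPKM in shCON and 565 ± 90.003 in shMAGED2; SD, n = 2). EIF4B, EIF1, EIF4G2, EIF3E and EIF5A followed in shCON, at 269 ± 5.69, 259 ± 12.1, 252 ± 10.5, 238 ± 5.80 and 236 ± 9.15 FPKM, and neighbours among these 5 differed by less than the sum of their SDs. In shMAGED2 EIF5A took the second place (428 ± 41.5 FPKM), EIF4G2 the third (308 ± 27.1), EIF1 the 8th (152 ± 18.8) and EIF4B the 9th, while EIF4G1 moved from the 13th place (110 ± 2.20) to the 6th (162 ± 15.6). At the low end, EIF4EBP3 (1.50 ± 0.62 FPKM), EIF4E3 (1.61 ± 0.02), EIF5AL1 (1.74 ± 0.15) and EIF5A2 (3.15 ± 0.10) lay at percentiles from 50.4 to 57.1 of all genes in the table in shCON.

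**Figure D5:**
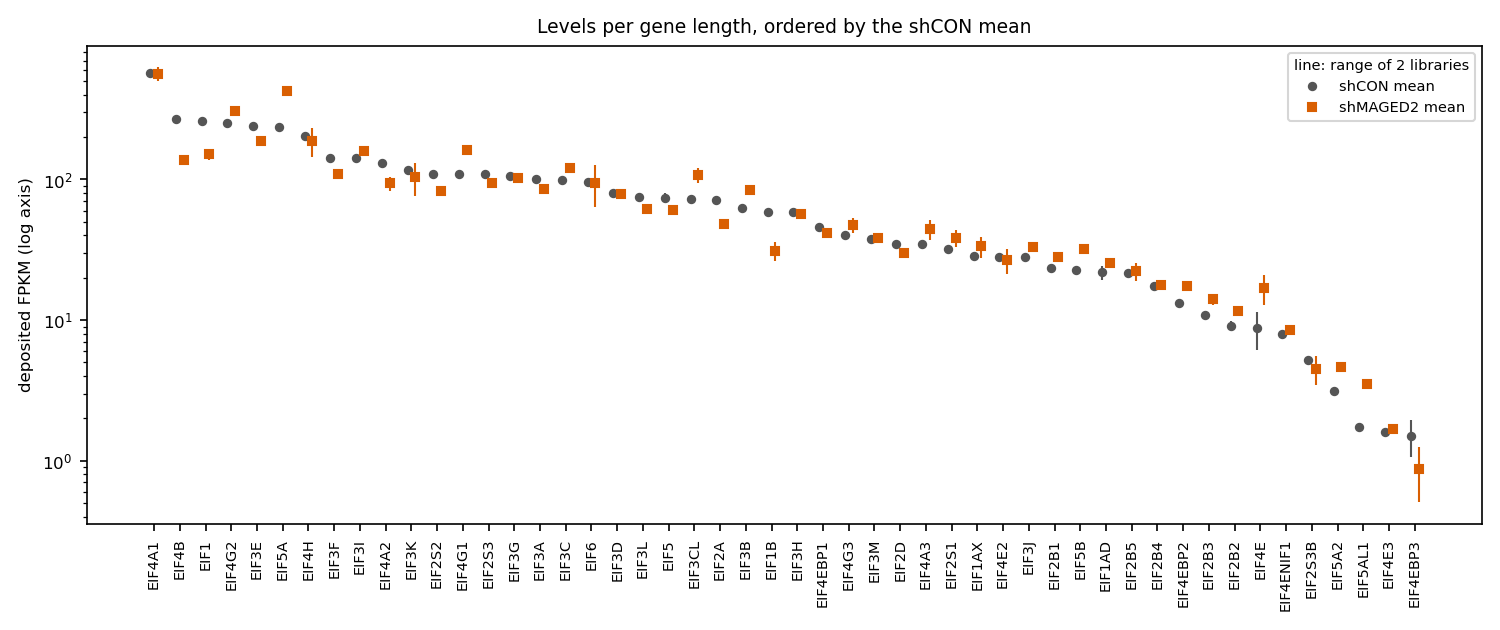
Deposited FPKM on a log axis for the 50 initiation factor genes with counts, ordered by their shCON mean. Circles (shCON) and squares (shMAGED2) are means and lines the range of the 2 libraries. EIF4B and EIF1 drop from the top of the order and EIF5A rises to second.

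The number of calls depended on which library was left out. EIF4B and EIF5A passed in all 17 alternative analyses, with adjusted p-values of at most 0.0294 and 0.0422. Without shCON replicate 1 these were the only calls (1 rise and 1 fall), and without shCON replicate 2 EIF1 and EIF1B passed as well (1 rise and 3 falls). In these fits a lone control library is assumed to vary like the knockdown libraries, which differ more from each other. A lone knockdown library is assumed to vary like the controls, which lay closer together, so such calls rest on the spread of the control pair. Leaving out a knockdown library instead gave 22 rises and 13 falls without shMAGED2 replicate 1, and 20 and 14 without shMAGED2 replicate 2. On the log2(FPKM + 1) scale EIF4G1, EIF5A, EIF5AL1 and EIF5B rose and EIF1, EIF1B, EIF2A and EIF4B fell, and the other 8 calls were lost.

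Promoters were looked up in the RefSeq table (GRCh38.p14, 250 bases before to 50 after each start), which held 44 of the 52 genes. For 33 of the 44 the end of the window lay within a GENCODE transcript of the gene. Many mRNAs of the translation machinery start with a C followed by a run of pyrimidines, the terminal oligopyrimidine (TOP) start through which mTOR and LARP1 control their translation. A start with C and 4 further pyrimidines was annotated for 9 of the 44 genes (20.5%) against 4.069% of 35116 promoters. They were EIF2A, EIF2D, EIF2S3, EIF3D, EIF3F, EIF3K, EIF3M, EIF4A2 and EIF4B. All 9 were tested with edgeR: 0 rose and 4 fell (EIF2A, EIF3F, EIF4A2 and EIF4B), and the median log2 change was -0.17. At an unadjusted p under 0.05, edgeR also gave 0 rises and 4 falls, and DESeq2 and limma-voom called 0 rises and 4 falls. Of the other 33 tested genes with a promoter 8 rose and 2 fell, with a median of 0.31. Over all tested genes with a promoter, 8.438% of the 557 with such a start rose and 16.517% fell (median -0.08), against 13.941% and 11.457% of the 9863 without (median 0.02). The 35116 promoters also include those of genes that were not tested, so 4.069% is not a share of like genes. The starts are those of the annotation and were not measured here.

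The promoters of 5 genes that changed are shown because they hold the start or a motif counted here. Each is 170 bases of the RefSeq window, 150 before the start and 20 from it on, in GRCh38.p14 on the plus strand, with motifs and the C and 4 pyrimidines of the start in capitals.
EIF4B: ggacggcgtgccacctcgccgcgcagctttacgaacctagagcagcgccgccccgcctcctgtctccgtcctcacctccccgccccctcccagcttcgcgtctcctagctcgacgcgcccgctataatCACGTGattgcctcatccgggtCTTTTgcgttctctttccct
EIF3F: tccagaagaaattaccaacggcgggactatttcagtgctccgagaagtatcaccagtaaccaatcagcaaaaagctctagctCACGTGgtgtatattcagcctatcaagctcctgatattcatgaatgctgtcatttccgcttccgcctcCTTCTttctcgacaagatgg
EIF2A: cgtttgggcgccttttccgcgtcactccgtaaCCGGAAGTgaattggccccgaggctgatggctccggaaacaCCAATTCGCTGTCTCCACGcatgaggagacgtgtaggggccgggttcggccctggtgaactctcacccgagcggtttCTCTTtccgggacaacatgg
EIF1B: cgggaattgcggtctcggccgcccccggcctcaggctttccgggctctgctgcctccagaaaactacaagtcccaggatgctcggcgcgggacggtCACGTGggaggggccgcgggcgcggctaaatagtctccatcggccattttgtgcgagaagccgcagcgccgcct
EIF5A: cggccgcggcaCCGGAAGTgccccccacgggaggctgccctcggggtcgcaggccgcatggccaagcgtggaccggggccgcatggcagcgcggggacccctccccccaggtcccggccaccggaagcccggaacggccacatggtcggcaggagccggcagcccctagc
They lie at chr12:53006306-53006475 (EIF4B), chr11:7987187-7987356 (EIF3F), chr3:150546637-150546806 (EIF2A), chr3:40309557-40309726 (EIF1B) and chr17:7308223-7308392 (EIF5A). The TOP-like starts of EIF4B, EIF3F and EIF2A can be seen beside those of EIF1B and EIF5A, which lack one.

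Of 6 motifs searched on both strands of the windows, the E-box CACGTG, the site of MYC and related factors, was in 10 of 44 genes (22.7%) against 7.256% of all promoters. Of these 10, EIF5A2 rose and EIF1B, EIF3F and EIF4B fell (10.0% and 30.0%). The share of all promoters, here and below, includes those of genes that were not tested. Of the 1009 tested genes with an E-box in their promoter, 14.569% rose and 12.289% fell, against 13.548% and 11.667% of the 9411 without. The ETS core CCGGAAGT was in 8 genes (18.2%) against 4.138%, of which EIF2B1, whose call was lost in 12 of 17 alternatives, EIF5A and EIF5A2 rose and EIF2A fell (37.5% and 12.5%). Of the 844 tested genes with that core, 14.573% rose and 8.175% fell, against 13.565% and 12.041% of the 9576 without. The endoplasmic reticulum stress response element, CCAAT and CCACG spaced by 9 bases and bound by ATF6 with NF-Y, was in EIF2A alone, 77 bases before the start, against 0.077% of all promoters (27). The C/EBP-ATF element TGATGNAA was in EIF4E3 alone (3.617% of all promoters), and the NRF1 core, GCGCA joined to TGCGC (1.239%), and the cAMP response element TGACGTCA (1.848%) were in 0 of the 44 windows. A match describes the letters of the window and was not tested as a site.

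Other genes of translation control, 66 on lists written from textbook knowledge with 65 tested, gave 7 rises and 6 falls (13 of 65 called, against 23.9% of all genes) and a median log2 change of 0.10. Among the 10 genes of the eIF2 kinases and of the phosphatase that reverses them, 1 rose and 2 fell. EIF2AK3, the kinase PERK that senses unfolded protein in the endoplasmic reticulum, fell from 53.5 and 47.3 to 28.4 and 28.6 CPM (log2 change -0.82, SE 0.12, adjusted p = 0.00747), and PPP1R15A, the stress-induced phosphatase subunit GADD34, from 141.9 and 136.3 to 76.8 and 67.4 CPM (log2 change -0.95, SE 0.11, adjusted p = 0.00326). PPP1CC, a catalytic subunit of the phosphatase, rose by 0.59 (SE 0.09, adjusted p = 0.00766). The kinases EIF2AK1, EIF2AK2 and EIF2AK4 had log2 changes of 0.07, 0.25 and 0.26 and did not pass.

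Among 14 genes that control eIF4F, 1 rose and 2 fell, a share of 21.4% beside the 23.9% called over all genes. MTOR rose by 0.33 (SE 0.09, adjusted p = 0.0446), from 120.5 and 116.3 to 149.5 and 148.3 CPM. PDCD4, an inhibitor that holds eIF4A, fell from 54.4 and 54.2 to 28.4 and 31.3 CPM (log2 change -0.87, SE 0.11, adjusted p = 0.00547), and MKNK2, a kinase that phosphorylates eIF4E on the eIF4G scaffold, from 129.1 and 135.0 to 88.5 and 82.1 CPM (log2 change -0.63, SE 0.10, adjusted p = 0.00841). LARP1 had a log2 change of 0.21 (adjusted p = 0.193). Of the 7 poly(A)-binding proteins and partners 0 passed the edgeR test and 1, PABPC1L, had an unadjusted p under 0.05 (log2 change -0.43, adjusted p = 0.0547), and DESeq2 and limma-voom each called 1 lower. PABPC1, which links eIF4G to the poly(A) tail, was at 1344 and 1370 against 1787 and 1262 CPM (adjusted p = 0.511).

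Of 12 accessory and recycling factors, ABCE1, the ATPase that splits the subunits after termination, rose from 114.4 and 125.2 to 184.0 and 198.8 CPM (log2 change 0.68, SE 0.10, adjusted p = 0.00763), and CTIF, which acts in cap-dependent translation with the nuclear cap-binding complex, fell by 0.51 (SE 0.14, adjusted p = 0.0445). Of 13 tested elongation and termination factors, EEF2K and GSPT1 rose, by 0.56 (SE 0.13, adjusted p = 0.0307) and 0.45 (SE 0.09, adjusted p = 0.0166). EEF2, the translocase that the kinase EEF2K inhibits, fell from 3999.5 and 3849 to 2756 and 2736 CPM (log2 change -0.52, SE 0.09, adjusted p = 0.0122). The share called was 16.7% of the 12 accessory and 23.1% of the 13 elongation and termination factors, no larger than the 23.9% of all genes.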

How the data were processed

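RNA-seq of 4 U87-MG libraries was used, 2 shCON and 2 shMAGED2, grouped by their titles. One deposited table gives raw counts for each gene in whole numbers, and a second gives the authors' FPKM values. HISAT2, StringTie and SAMtools on hg38 are named in the submitters' processing notes, without versions or roles. Of the annotation, the strand setting and the handling of multi-mapping reads nothing is stated in the sources used here. This leaves counts of overlapping genes and near-identical copies uncertain.

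Counts were filtered with filterByExpr, scaled by TMM and tested on all 4 libraries with edgeR 4.0.16 (robust quasi-likelihood, group only, two-sided) in R 4.3.3, with Benjamini-Hochberg adjustment over 15293 genes and a threshold of 0.05. Standard errors came from the F statistic, with 2 residual degrees of freedom. Precision is set by 28673774 to 36234336 counts per library and by 2 libraries per group. Ranks of levels and shares between genes were computed from FPKM. Coordinates and coding sequences are from GENCODE 29 (all 52 genes matched), promoters from RefSeq, and identities from Biopython 1.88 alignments. The genes, the 6 lists of other translation genes and the markers were chosen with earlier results of these data known.

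Full statistics were given for the 6 largest rises and 6 largest falls among called genes whose mean reached 5 CPM, for paralog and subunit sets, and for MAGED2, and up to 4 genes per other list were named by p. The 14 main alternatives were DESeq2 size factors or library size in edgeR, DESeq2 1.42.0, limma-voom, limma-trend (limma 3.58.1) on log2(FPKM + 1) and log2(FPKM + 0.1) with FPKM of at least 1 in 2 libraries, log2(FPKM + 1) unfiltered, no count filter, 5 CPM in 2 libraries, a block for replicate number, and leaving out 1 library at a time. A pseudocount shrinks the changes of genes with a low FPKM. Another 3 were added after seeing the data: GC and length trends removed (loess, span 0.3), near-identical copies summed, and EIF4A1 summed with its read-through gene.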

Additional observations from a re-analysis of the deposited data

How the results depend on the processing

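Rises and falls among the initiation factor genes (9 and 7) stayed within 1.5 times, and their median log2 change (0.12) within the spread between libraries, under DESeq2 size factors, DESeq2 (12 and 8), limma-voom, both other count filters, the replicate block (9 and 6) and the 3 alternatives added after seeing the data. Library size alone moved the median to 0.051. On log2(FPKM + 1) and log2(FPKM + 0.1) there were 4 rises and 4 falls (medians 0.0265 and 0.0275), and 1 and 1 without a filter (0.0265). Leaving out 1 library gave 1 to 22 rises, 1 to 14 falls and medians of 0.085 to 0.146. For the other translation genes (7 and 6), rises were 3, 3 and 0 in these FPKM fits, with 3 falls unfiltered, and leaving out a library gave 0 to 25 rises and 2 to 17 falls. Over all genes (1874 and 1775), rises were 1236 on log2(FPKM + 0.1), the unfiltered FPKM fit gave 642 and 717, and leaving out a library gave 567 to 3725 rises and 533 to 3722 falls. The cause of these shifts was not tested.

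EIF3D (0.053 in the reported fit) and EIF3H (0.028) turned to -0.012 and -0.037 under library size alone, -0.025 and -0.044 on log2(FPKM + 1), filtered or not, and -0.025 and -0.045 on log2(FPKM + 0.1). EIF6 turned to -0.0024 in limma-voom, -0.096 on log2(FPKM + 1), filtered or not, -0.098 on log2(FPKM + 0.1) and -0.012 with the replicate block, and EIF4A1 to 0.11 when summed with its read-through gene. With 1 library left out at a time, log2 changes ran from -0.041 to 0.27 for EIF2B5, from -0.48 to 0.10 for EIF2S3B, from -0.091 to 0.18 for EIF3D, from -0.089 to 0.052 for EIF3G, from -0.11 to 0.15 for EIF3H and from -0.40 to 0.095 for EIF3K. The ranges were -0.36 to 0.017 for EIF4A1, -0.38 to 0.14 for EIF4E2, -0.034 to 0.26 for EIF4E3, -0.20 to 0.027 for EIF4EBP1, -0.38 to 0.22 for EIF4H and -0.44 to 0.41 for EIF6. These 12 genes did not pass the test with all 4 libraries.

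Same-numbered libraries did not deviate together (correlation across genes -0.0182, 2 pairs). This correlation cannot show whether they were prepared as pairs, and the labels state no pairing. The replicate block was run as an alternative only. Under it EIF2B1 (adjusted p = 0.0879) and EIF2S2 (0.0739) no longer passed and EIF4E did (0.037). EIF4E also passed in DESeq2 (0.0242) and with no count filter (0.04). Without shMAGED2 replicate 1 or 2, where the spread comes from the shCON pair alone, its log2 change was 0.76 or 0.27. Depth limits EIF4EBP3, which had 12 to 48 counts, and EIF1AY and EIF4E1B, which had 0.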

Other observations

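Mitochondria translate with their own factors, and 9 genes of mitochondrial initiation, elongation and release were measured: 2 rose and 0 fell in edgeR (22.2% called, near the 23.9% of all genes), with 3 higher and 0 lower at an unadjusted p under 0.05, and DESeq2 and limma-voom also called 2 higher and 0 lower. MRRF, which recycles mitochondrial ribosomes, rose from 79.0 and 72.1 CPM in shCON to 119.2 and 111.0 CPM in shMAGED2 (log2 change 0.61, SE 0.10, edgeR adjusted p = 0.0115). TUFM, the mitochondrial elongation factor that delivers tRNA, rose from 191.4 and 180.5 to 241.0 and 244.8 CPM (log2 change 0.39, SE 0.09, adjusted p = 0.029). GFM1, the mitochondrial translocase, was at 93.9 and 93.6 against 112.2 and 115.0 CPM without passing (adjusted p = 0.075). MTIF2 and MTIF3, the mitochondrial initiation factors, had log2 changes of -0.17 (adjusted p = 0.26) and 0.30 (adjusted p = 0.46). The median over the 9 genes was 0.28, against 0.00 over all genes tested.

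Among cytoplasmic elongation factors, EEF1A1, which delivers tRNA to the ribosome, was at 6662 and 6623 CPM in shCON and 3988 and 5444 CPM in shMAGED2. Both knockdown libraries were below the controls, and the log2 change of -0.49 (SE 0.16) did not pass the edgeR test (adjusted p = 0.0701).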
